A study of Homo sapiens with 4 samples.

Results

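The mitochondrially encoded transcripts were taken as every gene whose name starts with MT- in the deposited count files, with a missing name read as 0 counts. Of the 37 MT- genes that GENCODE 29 places on the human mitochondrial chromosome (chrM, GRCh38), 25 had a count in at least 1 library, out of 31907 gene names in all. These 25 were the 13 protein-coding genes, the 2 ribosomal RNA genes and 10 of the 22 transfer RNA genes. The libraries were made from HGC-27, an established human gastric cancer cell line, given PBS (2 libraries) or recombinant IL-17B, a secreted cytokine of the interleukin-17 family, at 200 ng/ml (2 libraries), each for 48 h. RNA was made into libraries by Smart-seq2, in which an oligo-dT primer starts the cDNA and PCR amplifies it. The labels number the replicates 1 and 2 in each group but do not say that they came from separate cultures, so p-values measure only the spread between these libraries, which may be technical. The protocol text of the labels speaks of monocytes, while every sample is labelled as HGC-27.

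Human mitochondria keep a small circular genome that codes for membrane-embedded subunits of the respiratory chain and of ATP synthase, and for the rRNAs and tRNAs that translate them. Both strands are transcribed into long precursors, and tRNAs lying between the other genes mark many of the places where the precursors are cut into single RNAs. Most of the mRNAs, with MT-ND6 as the known exception, and the rRNAs then receive short 3′ tails of adenosines, and the respiratory complexes are assembled from these subunits together with many more made from nuclear genes. In the annotation, 28 of the 37 genes lie on the plus strand of the reference and 9 on the minus strand, namely MT-ND6 and 8 tRNA genes.

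Because the primer pairs with runs of A, the longest internal A run of each rRNA gene is shown, in capitals, with its flanks. These and the other sequences are from the GENCODE 29 transcripts on GRCh38, 5′ to 3′ on the gene's own strand. The first lies at chrM:979-1012 in MT-RNR1 and the second at chrM:2443-2477 in MT-RNR2, with runs of 6 and 7 bases. Such runs were not particular to the rRNA genes. The longest run had 8 bases in MT-ND5 and 7 in MT-ND2, MT-CO1 and MT-ND4. In the other protein genes it had 3 to 6 bases. Whether cDNA started at any of these runs was not tested.
MT-RNR1 longest A run: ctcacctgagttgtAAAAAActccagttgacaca
MT-RNR2 longest A run: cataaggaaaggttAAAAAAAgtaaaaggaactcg
The annotated last 30 bases of the same genes (chrM:1572-1601 and chrM:3200-3229) are given next, since the 3′ end is where the tail is added.
MT-RNR1 3′ end: aagtgtactggaaagtgcacttggacgaac
MT-RNR2 3′ end: tatacccacacccacccaagaacagggttt
Overlaps bear on how reads were assigned, and those of 2 pairs of protein genes are shown. MT-ATP8 and MT-ATP6 share 46 bases (chrM:8527-8572), shown with the start codon of MT-ATP6 and the stop codon of MT-ATP8 in capitals. MT-ND4L and MT-ND4 share 7 bases, in capitals within chrM:10750-10776. MT-ATP6 and MT-CO3 also share 1 base.
MT-ATP8 and MT-ATP6: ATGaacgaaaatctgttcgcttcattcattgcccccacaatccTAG
MT-ND4L and MT-ND4: acctactccaATGCTAAaactaatcgt
MT-TP, the proline tRNA (chrM:15956-16023, minus strand), is shown because it was the one tRNA gene with 10 or more counts in every library.
MT-TP: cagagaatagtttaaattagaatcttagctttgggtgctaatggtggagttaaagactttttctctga

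Library totals were between 12888029 and 17555879 counts, so that 3 counts, taken as the smallest level that can be shown, corresponded to 0.171 to 0.233 counts per 1000000 counts of the library (CPM). rIL-17B replicate 1 stood apart from the other 3 libraries. The summed level of 9 mesenchymal and matrix genes was 53238 and 52633 CPM in the PBS libraries, 1282 CPM in rIL-17B replicate 1 and 44543 CPM in rIL-17B replicate 2, and that of 9 epithelial genes was 794, 803, 1849 and 1020 CPM in the same order. FN1 made up most of the first sum with PBS, at 33131, 32458, 149 and 27450 CPM. VIM, at 727, 706, 280 and 615 CPM, and CDH2, at 125, 130, 55.8 and 112 CPM, fell much less. All 9 were lower in both rIL-17B libraries. The epithelial sum was almost all KRT8, at 601, 611, 1457 and 787 CPM, and KRT18, at 169, 165, 355 and 207 CPM. KRT19, another keratin gene, was at 2.96, 3.34, 0.0684 and 3.30 CPM, while the adhesion genes EPCAM and CDH1 were at most 5.34 and 0.753 CPM and ESRP1 was at 0 in 2 libraries. The summed level of 12 monocyte genes was 23.6, 21.9, 8.55 and 23.9 CPM, 8 of the 12 were at 0 in at least 1 library, and PTPRC, the common leukocyte antigen, was at 2.96, 1.71, 0 and 2.05 CPM. CSF1R, a receptor gene, made up most of that sum in rIL-17B replicate 1 and lay above PBS in both rIL-17B libraries, at 3.90, 5.59, 8.14 and 6.15 CPM. The part of these genes in the results below was not tested, and in such bulk libraries fewer cells of a type and less RNA per cell cannot be told apart. Values below follow the order PBS replicate 1, PBS replicate 2, rIL-17B replicate 1 and rIL-17B replicate 2.

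The total of the mitochondrial transcripts was lowest in rIL-17B replicate 1, where the rRNAs were low and the mRNAs were not. MT- genes took 8.89%, 8.72%, 7.02% and 8.47% of the counts of the libraries. The 2 rRNA genes took 3.20%, 3.12%, 0.878% and 2.78%, whereas the 13 mRNAs took 5.68%, 5.59%, 6.14% and 5.69%. As shares of library totals, both rIL-17B libraries were a little above both PBS libraries for the mRNAs and below them for the rRNAs. The order for the mRNAs depends on this scaling. The TMM factors of edgeR were 0.970, 0.982, 1.07 and 0.979, and with them the median log2 fold change of the 13 mRNAs was -0.06. Within the MT- counts the rRNAs made up 36.0%, 35.8%, 12.5% and 32.8%. The mean MT- share was 8.80% ± 0.119 with PBS against 7.75% ± 1.03 after rIL-17B (mean ± SD, n = 2 per group), which is a difference of -1.06 percentage points. With 2 libraries against 2 a two-sided exact permutation test cannot give a p under 0.333, which was the p of this difference and of the rRNA share of MT- counts (difference -13.2 percentage points), and both were 0.417 after Benjamini-Hochberg adjustment over 15 shares. Counting error was small beside the gaps in the shares of the libraries taken by all MT- genes and by the rRNAs. The 95% Wilson intervals of a share of a library reached at most 0.0154 percentage points to either side. For the mRNAs, the intervals of PBS replicate 1 (5.672% to 5.695%) and rIL-17B replicate 2 (5.677% to 5.698%) overlapped. Their order was therefore within counting error.

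MT-RNR1, the 12S rRNA of the small mitochondrial ribosomal subunit (chrM:648-1601), had 135750, 108717, 9999 and 127581 counts, or 8535, 8436, 684 and 7267 CPM. It was the gene with the 5th most counts in 3 of the libraries and the 145th in rIL-17B replicate 1. That library was 12.4-fold under the mean of the PBS libraries, a log2 ratio of -3.63, and rIL-17B replicate 2 had a log2 ratio of -0.22, also under both PBS libraries. MT-RNR2, the 16S rRNA of the large subunit (chrM:1671-3229), had 372748, 293552, 118381 and 360380 counts, or 23436, 22777, 8100 and 20528 CPM. Its level was 2.85-fold under the PBS mean in rIL-17B replicate 1 (log2 ratio -1.51), and its log2 ratio in rIL-17B replicate 2 was -0.17. The 2 rRNAs therefore did not move by one factor, although they are neighbours on the same precursor. The ratio of MT-RNR1 to MT-RNR2 counts was 0.364, 0.370, 0.0845 and 0.354, that is, 4.35-fold under the PBS mean in rIL-17B replicate 1. In edgeR's quasi-likelihood test the log2 fold change of MT-RNR1 was -1.11 (SE 1.21, adjusted p = 0.692) and that of MT-RNR2 was -0.73 (SE 0.57, adjusted p = 0.662), so the test did not resolve either difference from the spread between replicates. Other abundant genes were also low in rIL-17B replicate 1. The limits used here were chosen after the values were seen. Of the 69 genes with a PBS mean of at least 1000 CPM, 29 were at least 2-fold lower there, MT-RNR1 and MT-RNR2 among them. At least 8-fold lower were 18, MT-RNR1 among them, and 15 had a lower ratio than MT-RNR1. With a limit of 100 CPM, 249 of 2048 genes were at least 2-fold lower, 104 were at least 8-fold lower and 95 had a lower ratio than MT-RNR1.

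Levels of different genes were compared per length, as CPM per kb of gene. With PBS the order began with MT-RNR2 at 14822 ± 299 CPM per kb (mean ± SD, n = 2), MT-CO1 at 10084 ± 93.3, MT-RNR1 at 8895 ± 73.9, MT-CO3 at 8035 ± 86.9, MT-CO2 at 7671 ± 119 and MT-ND4 at 6465 ± 120. It ended with MT-ND6 at 846 ± 89.3, MT-TP at 759 ± 4.2 and MT-ATP8 at 387 ± 90.2 CPM per kb. Neighbours in this order whose PBS libraries overlapped were MT-ND1 and MT-ND2, MT-ND3 and MT-ND5, and MT-ND5 and MT-ND4L. In rIL-17B replicate 1, MT-RNR1 stood at 717 CPM per kb, below MT-ND6 at 832 and MT-TP at 890, and MT-CO1 at 11792 CPM per kb stood above MT-RNR2 at 5195. In rIL-17B replicate 2 MT-RNR2 at 13167 CPM per kb was again above MT-CO1 at 10298.

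**Figure D1:**
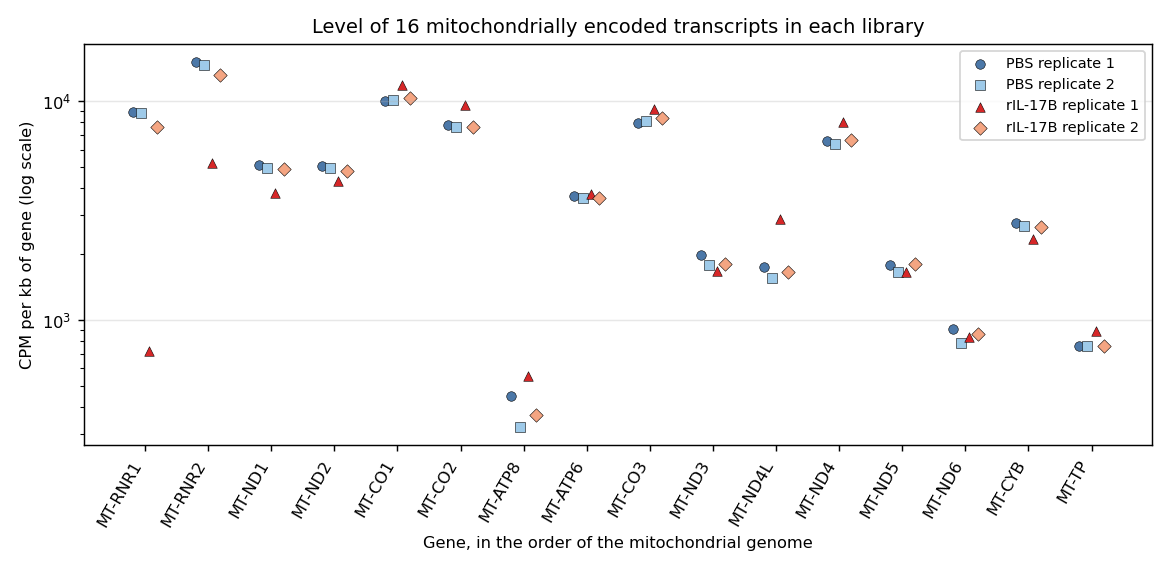
Level of the 16 MT- genes with at least 10 counts in every library, in CPM per kb of gene on a log axis, with genes in the order of the mitochondrial genome and 1 point per library. The points of MT-RNR1 run from 717 to 8947 CPM per kb, while for the mRNAs the 4 libraries lie close together.

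Complex IV, cytochrome c oxidase, passes electrons to oxygen, and its 3 mitochondrially encoded subunits form its catalytic core. MT-CO1 (chrM:5904-7445), which carries the site where oxygen is reduced, was at 15448, 15652, 18183 and 15879 CPM, and MT-CO3 (chrM:9207-9990) was at 6251, 6347, 7233 and 6557 CPM. For both, the rIL-17B libraries were above the PBS libraries. MT-CO2 (chrM:7586-8269), the subunit that takes electrons from cytochrome c, was at 5305, 5189, 6587 and 5210 CPM, with rIL-17B replicate 2 between the PBS libraries. Log2 fold changes were 0.06, 0.06 and 0.09 for MT-CO1, MT-CO3 and MT-CO2 (edgeR's quasi-likelihood test, adjusted p between 0.796 and 0.880). Together these mRNAs took 2.70%, 2.72%, 3.20% and 2.76% of the counts of the libraries (exact permutation p = 0.333, two-sided, the smallest possible).

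Complex I, NADH dehydrogenase, takes electrons from NADH, and 7 of its membrane subunits are mitochondrially encoded. Their summed share of the libraries hardly varied, at 2.41%, 2.32%, 2.40% and 2.37% (exact permutation p = 1.00, two-sided), but in rIL-17B replicate 1 the single mRNAs lay on both sides of PBS. MT-ND1 (chrM:3307-4262) was at 4891, 4740, 3639 and 4681 CPM and MT-ND2 (chrM:4470-5511) was at 5248, 5136, 4466 and 5006 CPM. Both were under PBS in each rIL-17B library. MT-ND4 (chrM:10760-12137), which was at 9026, 8793, 11027 and 9175 CPM, was above PBS in both. MT-ND4L (chrM:10470-10766), read from the same mRNA as MT-ND4, was at 517, 462, 861 and 493 CPM, which is 1.76-fold above the PBS mean in rIL-17B replicate 1 and between the PBS libraries in rIL-17B replicate 2. The ratio of MT-ND1 to MT-ND4 counts was 0.542, 0.539, 0.330 and 0.510. MT-ND3 (chrM:10059-10404) was at 686, 613, 579 and 622 CPM and MT-ND5 (chrM:12337-14148) at 3230, 3006, 3006 and 3258 CPM. MT-ND6 (chrM:14149-14673), the one protein gene on the minus strand, was at 477, 411, 437 and 450 CPM, so that both rIL-17B libraries lay between the PBS libraries. It overlaps no other protein gene but lies opposite the other precursor, and with the strand setting not given in the sources used here its reads cannot be told apart from antisense reads. Of the 7, MT-ND4L had the highest log2 fold change at 0.38 (SE 0.28, adjusted p = 0.661) and MT-ND1 the lowest at -0.27 (SE 0.25, adjusted p = 0.668) in edgeR's quasi-likelihood test.

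Complex III hands electrons from ubiquinol to cytochrome c, and its single mitochondrially encoded subunit is cytochrome b. Its gene MT-CYB (chrM:14747-15887) was at 3152, 3058, 2681 and 3025 CPM, with both rIL-17B libraries under both PBS libraries and a log2 fold change of -0.19 (SE 0.19, adjusted p = 0.681, edgeR's quasi-likelihood test). ATP synthase makes ATP from the proton gradient, and MT-ATP6 and MT-ATP8 code for subunits of its membrane part. MT-ATP6 (chrM:8527-9207) was at 2509, 2442, 2553 and 2444 CPM. MT-ATP8 (chrM:8366-8572) was at 93.4, 67.0, 114 and 75.9 CPM, and the PBS libraries were farther apart here than for any other MT- gene with 10 or more counts in every library. The overlap printed above covers 22.2% of the gene, and how reads in shared bases were assigned is not given in the sources used here. Neither gene passed the test, with log2 fold changes of -0.06 for MT-ATP6 and 0.16 for MT-ATP8 (edgeR's quasi-likelihood test, adjusted p = 0.841 and 0.761).

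tRNAs are short RNAs that carry amino acids to the ribosome. MT-TP had 818, 668, 885 and 908 counts, or 51.4, 51.8, 60.6 and 51.7 CPM, with rIL-17B replicate 2 between the PBS libraries (log2 fold change 0.05, adjusted p = 0.805, edgeR's quasi-likelihood test). Like MT-ND6 it lies on the minus strand, and with the strand setting not given its reads cannot be told apart from antisense reads. The other 9 listed tRNA genes had at most 8 counts in any library. The remaining 12 were in no library, and a count of 0 allows a level of up to 0.171 to 0.233 CPM, for counting error only.

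Of the 25 genes, 17 were in all 4 libraries and 16 had at least 10 counts in each. All 16 passed the filter on low counts and were tested among 16361 genes. In edgeR's quasi-likelihood test none reached the adjusted threshold of 0.05, against 0.0% of all tested genes, and none had an unadjusted p under 0.05, against 1.38% of all tested genes (226 genes). DESeq2 also called 0 genes, and gave 457 an unadjusted p under 0.05. The lowest adjusted p of a member was 0.661, for MT-ND4L, and the highest was 0.880. The median log2 fold change of the 13 mRNAs was -0.06, with 6 above 0 and 7 below, beside a median of -0.03 over all tested genes. Both rIL-17B libraries were above both PBS libraries for 3 of the 16 (MT-CO1, MT-CO3 and MT-ND4), or 18.75%, against 31.5% of all tested genes. Both were below for 5 of the 16 (MT-RNR1, MT-RNR2, MT-ND1, MT-ND2 and MT-CYB), or 31.25%, against 27.5%, and for the other 8 the groups overlapped.

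The result depended on which rIL-17B library was kept. Without rIL-17B replicate 1, 1 of the 16 passed, MT-RNR1 with a log2 fold change of -0.23 (SE 0.067, adjusted p = 0.0284 in edgeR's quasi-likelihood test), against 2.95% of all tested genes, and MT-RNR2 was at -0.17 (adjusted p = 0.0984). Without rIL-17B replicate 2, 11 of the 16 passed, against 55.1% of all tested genes. Of these, MT-ATP8, MT-CO2, MT-ND4 and MT-ND4L were higher in the remaining rIL-17B library and MT-RNR1, MT-RNR2, MT-ND1, MT-ND2, MT-ND3, MT-ND5 and MT-CYB were lower. In both fits a lone rIL-17B library is assumed to vary like the PBS libraries. Each of these fits compares 1 library with 2, so neither compares the conditions. Without a PBS library, 0 of the 16 passed.

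**Figure D2:**
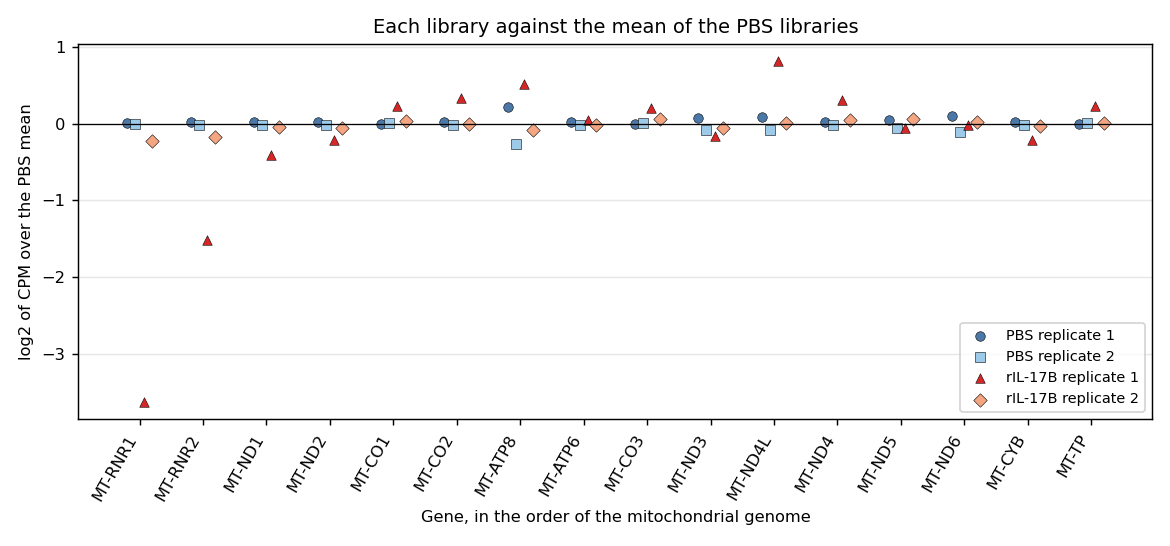
Log2 of each library's CPM over the mean CPM of the PBS libraries, for the 16 genes in the order of the mitochondrial genome, 1 point per library. In rIL-17B replicate 1 the mRNAs lie between -0.40 and 0.82 and MT-RNR1 at -3.63, and in rIL-17B replicate 2 the mRNAs lie between -0.08 and 0.06.

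Among the mRNAs alone, rIL-17B replicate 2 was about as close to the PBS libraries as these were to each other. The chi-square of the makeup of the 13 mRNAs, divided by its degrees of freedom (about 1 where only sampling differs), was 34.7 between the PBS libraries, 49.5 and 25.7 between rIL-17B replicate 2 and PBS replicates 1 and 2, and 1079 and 875 between rIL-17B replicate 1 and the same PBS libraries. Every pair of libraries differed by more than sampling noise, so none was a library deposited more than once. With the rRNAs and MT-TP included, the values for rIL-17B replicate 2 were 258 and 197, against 29.2 between the PBS libraries. In rIL-17B replicate 1, 7 of the 13 mRNAs were above both PBS libraries and 5 below. The matching shares over all tested genes were not computed, so these counts are a description only. Among the 5 was MT-ND5, at 3005.88 CPM against 3005.97 CPM in PBS replicate 2, which is nearly level by library totals. In the TMM-scaled fit without rIL-17B replicate 2 its log2 fold change was -0.19.

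Nuclear chromosomes hold old copies of mitochondrial DNA, and reads from near-identical copies can be assigned to either place, so counts of both are uncertain. Of these copies 70 were listed, and 9 had at least 10 counts in a library, a limit set after their counts were seen. All 70 together summed to 0.690%, 0.649%, 0.868% and 0.654% of the MT- counts. MTATP6P1 (chr1:633696-634376), 98.5% identical to MT-ATP6 over 681 bases, had 6012, 4467, 5454 and 5872 counts, which is 15.1%, 14.2%, 14.6% and 13.7% of the counts of MT-ATP6. MTND2P28 (chr1:629640-630683), 98.4% identical to MT-ND2, had 3.45%, 3.45%, 4.72% and 3.57% of the counts of MT-ND2. MTND1P23 (chr1:629062-629433), a copy of part of MT-ND1, had 190, 109, 2 and 150 counts and so was nearly absent from rIL-17B replicate 1. Whether these reads came from the nuclear or the mitochondrial copy was not tested.

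The nuclear genome codes for the other subunits of the same complexes, and in the rIL-17B libraries these mRNAs were higher relative to the mitochondrial ones than in the PBS libraries. In rIL-17B replicate 1 the summed nuclear-encoded mRNAs had log2 ratios to the PBS mean of 0.50 for complex I, 0.62 for complex III, 0.49 for complex IV and 0.56 for ATP synthase, where the mitochondrially encoded ones had 0.02, -0.21, 0.24 and 0.06. In rIL-17B replicate 2 the nuclear-encoded ones had 0.09, 0.15, 0.08 and 0.09 and the mitochondrially encoded ones 0.00, -0.04, 0.03 and -0.02. For all 4 complexes the ratio of mitochondrially to nuclear-encoded mRNA counts was therefore under both PBS values after rIL-17B. For complex I it was 14.7, 14.3, 10.5 and 13.7, and for complex III it was 4.0, 3.75, 2.18 and 3.40. The complex IV ratio was 31.0, 31.7, 26.3 and 30.3, and the ATP synthase ratio was 1.30, 1.26, 0.909 and 1.19. Each of the 4 ratios gave the smallest two-sided p that an exact permutation test of these libraries allows, 0.333, also after adjustment over the 4. For rIL-17B replicate 2 the gap to the nearer PBS library was small for complexes I and IV.

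**Figure D3:**
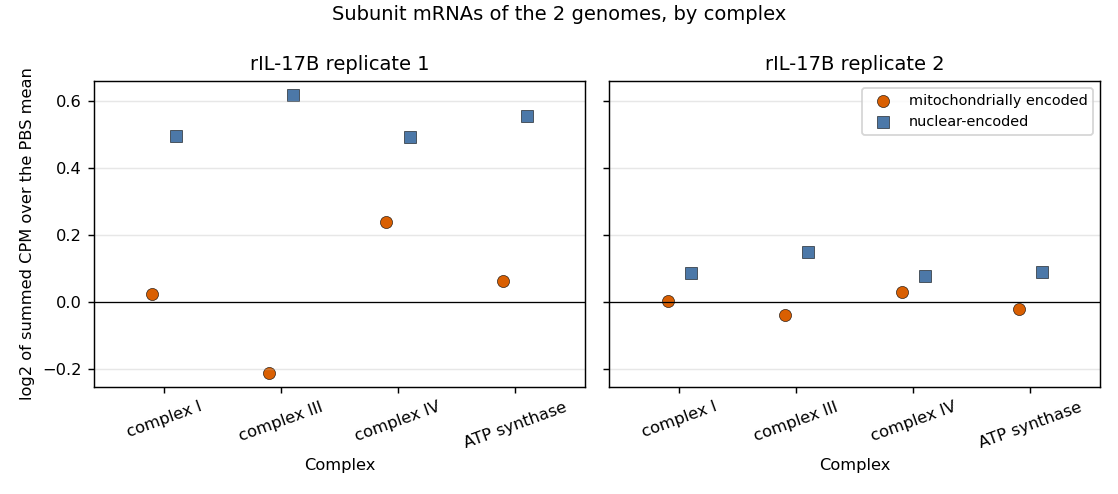
Log2 of the summed CPM over the mean of the PBS libraries, for the mitochondrially encoded and the nuclear-encoded subunit mRNAs of each complex, with rIL-17B replicate 1 on the left and rIL-17B replicate 2 on the right. The nuclear-encoded sums lie above the mitochondrially encoded ones for all 4 complexes in both libraries, between 0.49 and 0.62 in replicate 1 and between 0.08 and 0.15 in replicate 2.

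Among the nuclear genes of these complexes, 36 of 37 for complex I, 9 for complex III, 11 for complex IV and 15 for ATP synthase were tested, and 0 passed an adjusted p of 0.05. Their median log2 fold changes were 0.18, 0.29, 0.19 and 0.22, beside -0.03 over all tested genes. Without rIL-17B replicate 1 they were 0.09, 0.16, 0.08 and 0.08, and without rIL-17B replicate 2 they were 0.31, 0.45, 0.33 and 0.34. The gene with the smallest p was NDUFA6 in complex I, at 62.1, 59.98, 94.4 and 71.3 CPM. In complex III it was UQCRQ at 16.4, 15.6, 26.1 and 19.8 CPM. In complex IV it was COX5B at 85.9, 85.9, 119 and 96.3 CPM, and in ATP synthase it was ATP5G1, a gene of the rotating membrane ring, at 55.6, 54.7, 100.2 and 66.4 CPM. In each of these 4 genes both rIL-17B libraries were above PBS, with rIL-17B replicate 1 the higher. They were picked by p in the same comparison, so this is not a further result. In the same order of complexes, both rIL-17B libraries were above PBS for 20 of 36, 5 of 9, 6 of 11 and 10 of 15 tested genes. Over all tested genes this share was 31.5%. Both were below PBS for 1, 0, 1 and 1 of them, against 27.5% of all tested genes. The differences from these shares were not tested.

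The machinery that transcribes and matures mitochondrial RNA is nuclear-encoded too. Of 10 transcription genes 9 had a log2 fold change above 0 (median 0.11) and 0 passed. POLRMT (chr19:617224-633604), the mitochondrial RNA polymerase, was at 95.1, 108, 130 and 102 CPM, with rIL-17B replicate 2 between the PBS libraries. TFAM (chr10:58385022-58399221), which packages the mitochondrial genome and starts transcription, was at 69.5, 73.8, 115 and 79.5 CPM, with a log2 fold change of 0.36 (SE 0.17, adjusted p = 0.661, edgeR's quasi-likelihood test). TEFM (chr17:30897336-30906820), the elongation factor and the gene with the smallest p in this list, was at 4.72, 5.90, 9.10 and 8.72 CPM, with a log2 fold change of 0.68 (SE 0.24, adjusted p = 0.661, edgeR's quasi-likelihood test). TEFM stood at nearly the same level in both rIL-17B libraries.

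Both rIL-17B libraries were above both PBS libraries for 21 of 26 genes of mitochondrial RNA processing and for 5 of the 10 of transcription, against 31.5% of all tested genes, and the difference between these shares was not tested. The median log2 fold change of the 26 was 0.26 and 0 passed. LRPPRC (chr2:43886508-43996005), which stabilises mitochondrial mRNAs together with SLIRP, was at 321, 314, 542 and 373 CPM, and SLIRP (chr14:77708071-77761104) was at 40.8, 39.6, 62.0 and 45.2 CPM. HSD17B10 (chrX:53431258-53434373), a subunit of the mitochondrial RNase P that frees the 5′ ends of tRNAs, was at 78.3, 81.9, 149.8 and 95.7 CPM and had the smallest p of this list. MTPAP, the mitochondrial poly(A) polymerase, was at 24.0, 21.1, 27.6 and 25.2 CPM, with a log2 fold change of 0.15 (adjusted p = 0.669, edgeR's quasi-likelihood test).

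Of 12 genes of mitochondrial DNA maintenance, 10 had a log2 fold change above 0 (median 0.25) and 0 passed. TWNK (chr10:100987367-100994401), the replicative helicase, was at 39.2, 42.8, 79.9 and 51.1 CPM. POLG, the DNA polymerase, was at 72.4, 77.7, 107 and 79.0 CPM, and SSBP1, the single-strand binding protein, was at 81.4, 71.5, 125 and 89.1 CPM. All 3 were above PBS in both rIL-17B libraries. This held for 7 of the 12, against 31.5% of all tested genes. For 2 of the 12 both rIL-17B libraries were below PBS, against 27.5% of all tested genes. The differences from these shares were not tested. Of 8 regulators of mitochondrial biogenesis, 6 were above 0 (median 0.14). PPARGC1A, a transcriptional coactivator of this programme, was at 19.99, 20.2, 27.98 and 20.4 CPM. GABPA, a transcription factor of many nuclear respiratory genes and the gene with the smallest p in that list, was at 43.4, 48.4, 39.5 and 38.5 CPM, with both rIL-17B libraries under PBS. Of the 127 tested nuclear genes of the 8 lists together, 105 (82.7%) had a log2 fold change above 0, against 47.4% of all tested genes, and 78 (61.4%) were higher in both rIL-17B libraries, against the 31.5% of all tested genes given above. Without rIL-17B replicate 1, 95 of the 127 (74.8%) were above 0, against 48.1% of all tested genes. None of the 127 had an unadjusted p under 0.05, and the lists were written with earlier results of these data known.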

How the data were processed

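For each of the 4 libraries the authors deposited 1 file of raw counts, whole numbers of reads by gene name. The submitters' processing notes name HISAT2 2.1.0, TopHat2, Bowtie2 2.2.3, HTSeq 0.6.0 and hg38, with no role or order, and the annotation and the strand setting are not given in the sources used here. Entries with date-like numbers in place of a name (22 to 25 in each library) were left out, and a repeated name was used once (83 to 98 per library, 0 of them MT-). CPM is the count divided by the library total, times 1000000. Groups came from the labels. rIL-17B was compared with PBS by edgeR 4.0.16 in R 4.3.3 (TMM, filterByExpr, quasi-likelihood test, Benjamini-Hochberg adjustment over 16361 genes, threshold 0.05). The code was tested on simulated data, where recovery of changed genes was required only at the spread of the PBS libraries. It does not show what could be detected at the spread between the rIL-17B libraries. Shares and ratios were compared by exact permutation tests, two-sided. Medians per list and library had 0.5 CPM added. Coordinates and transcript sequences came from GENCODE 29 on GRCh38, in which 97.8% of the names were found once, and identities to nuclear copies from local alignment in Biopython 1.88. Since strand use is not known, counts of overlapping genes are uncertain. Of the genes named from the nuclear lists, this touches all except POLRMT, TFAM and COX5B. Overlaps of the other named nuclear genes are not given here. Intervals and floors cover counting error only, since PCR copies are not independent molecules. Every MT- gene with at least 10 counts in every library is described by its values, and of the nuclear lists 9 chosen genes and the gene with the smallest p in each. Members and lists were chosen with earlier results of these data known. Alternatives were upper-quartile scaling, library totals only, TMM without MT- genes, DESeq2 1.42.0, other filters, a replicate block, repeated names summed, other denominators and leaving out each library.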

Additional observations from a re-analysis of the deposited data

How the results depend on the processing

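With 2 libraries per group a single library decides the values. Leaving out each library in turn gave between 0 and 9489 genes past the threshold in edgeR's quasi-likelihood test (0 with all libraries, 504 without rIL-17B replicate 1 and 9489 without rIL-17B replicate 2), between 0 and 11 MT- genes, and between 0 and 86 genes of the nuclear lists. These counts are out of 16 tested MT- genes and 127 tested genes of the nuclear lists. The highest came without rIL-17B replicate 2, a fit in which 55.1% of all tested genes passed. Whether the MT- genes or the lists differed from that share was not tested. With a library left out, the difference in MT- share ranged from -1.78 to -0.33 percentage points. That in the rRNA share of MT- counts ranged from -23.4 to -3.08 percentage points. The median log2 fold change of the 13 mRNAs ranged from -0.092 to 0.050. The medians of the nuclear lists stayed above 0, at 0.024 to 0.23 for transcription, 0.13 to 0.41 for RNA processing, 0.17 to 0.37 for DNA maintenance and 0.021 to 0.20 for the regulators, each lowest without rIL-17B replicate 1. Single genes that changed sign with a library left out were MT-CO2 (-0.014 to 0.19), MT-ATP8 (-0.089 to 0.43), MT-ND5 (-0.19 to 0.059), MT-ND6 (-0.18 to 0.050) and MT-TP (-0.0012 to 0.093). With library totals only, the mRNA median was 0.013, and the log2 fold changes of MT-ATP6 and MT-ND5 turned to 0.013 and 0.0064. With at least 10 counts in every library the mRNA median was -0.10. Library totals only moved the median of all tested genes from -0.03 to 0.04. Without MT-RNR2 the difference in rRNA share was -6.86 percentage points, and with a denominator free of MT- counts that in MT- share was -1.25. No gene passed under any alternative that kept all libraries, where between 161 and 879 genes had an unadjusted p under 0.05. A replicate block left 0 genes past the threshold and gave 173 an unadjusted p under 0.05, against 226 with no block, and it moved the log2 fold change of MT-RNR1 from -1.11 to -1.998. Over the tested genes, the deviations of the replicate 1 libraries from their group means correlated at 0.08. With 2 libraries per group, those of replicate 2 are the same values with the opposite sign. The correlation therefore cannot show whether the numbers pair the libraries, and the main fit did not pair them. The cause of these changes was not tested.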
